A study of Mus musculus with 8 samples.

Results

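Glycolysis and hypoxia genes, 34 in all, were followed across the cell classes of mouse colon tumours grown from transplanted organoids. They were chosen by symbol from 20275 gene symbols in the count tables, without a threshold on their values, and all 34 were listed on each of the 8 plates. By role they comprised 2 glucose transporters (Slc2a1 and Slc2a3), 13 glycolytic enzymes (Hk1, Hk2, Gpi1, Pfkl, Pfkp, Pfkm, Aldoa, Tpi1, Gapdh, Pgk1, Pgam1, Eno1 and Pfkfb3), 3 genes of pyruvate and lactate handling (Ldha, Pdk1 and Slc16a3) and 2 oxygen sensors (Egln1 and Egln3). The other 14 comprised 4 hydroxylases and oxidoreductases of the secretory pathway (P4ha1, P4ha2, Plod2 and Ero1l) and 10 other targets of hypoxia-inducible factor (HIF), namely Vegfa, Adm, Bnip3, Ndrg1, Car9, Ankrd37, Hilpda, Ddit4, Bhlhe40 and Kdm3a.

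Glycolysis splits glucose into pyruvate in the cytosol, and lactate dehydrogenase with lactate export keeps the pathway running when little pyruvate enters mitochondria. When oxygen is short, prolyl hydroxylases no longer mark HIF-1α for destruction, and its dimer with ARNT binds a short DNA core and raises transcription of glucose transporters, glycolytic enzymes, lactate exporters and genes of vessel growth, matrix modification and mitophagy. Solid tumours are known for poorly oxygenated regions, neutrophils for their reliance on glycolysis, and fibroblasts for collagen hydroxylases that use oxygen as a substrate.

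The study asked how loss of the transcription factor Zeb1 from fibroblasts alters these tumours. Single cells of colon tumours were sorted into 384-well plates, gated as EPCAM+ epithelial cells, CD45+ immune cells or cells negative for EPCAM, CD45 and CD31, and read by 3′ tag counting with molecular identifiers (SORT-seq). The labels gave 4 plates of FibCtrl mice, which lacked a Cre transgene, and 4 plates of FibΔZeb1 mice (labelled Fib-Del), which carried it. Replicate numbers ran from 1 to 4 in each group. All mice received a tamoxifen diet, and per the study's methods all carried floxed Zeb1 alleles and were age-matched littermates of both sexes whose ages were not given. The labels named the transgene Col1a1Cre-ERT2 and the methods Col1a2-CreERT2, an inducible Cre under a collagen promoter that acts in collagen-producing cells. Tumours arose from engineered tumour organoids, the same in both groups, placed beneath the muscle layer of the cecum, and recombination was induced after grafting, so that tumour epithelium came from cultured cells and the remaining cells from the host.

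The 8 plates held 3072 wells, of which 1831 passed filters on transcripts and mitochondrial content, and total transcripts ranged from 1759509 to 7079527 per plate. Clustering without the 34 genes and the other pathway genes gave 23 clusters, and 1291 wells fell into 5 classes named from markers: epithelial-like, fibroblast-like, neutrophil-like, macrophage-like and lymphoid-like, shortened to the cell name from here on. Levels are given as CPM, the transcripts of a gene scaled to a common total for each class and plate, mitochondrial and spike-in transcripts left out. Since each transcript gives 1 tag, these levels can be set side by side between genes, within what a 3′ tag maps to. A class was used on a plate with at least 10 wells, which kept epithelial cells on 8 plates, fibroblasts on 5 (FibCtrl 1 and 4, FibΔZeb1 1, 3 and 4), neutrophils on 7 (not FibCtrl 1), macrophages on 6 (not FibCtrl 2 or FibΔZeb1 2) and lymphoid cells on 7 (not FibCtrl 2). The median well held 27279 transcripts in epithelial cells, 18516 in fibroblasts, 8505 in macrophages, 2923 in lymphoid cells and 1889 in neutrophils. Each class was led by its own markers, but all 14 fibroblast markers were also seen in the other classes, with a sum of 66862 to 96477 CPM in fibroblasts, 865 to 7027 in neutrophils, 898 to 4929 in lymphoid cells, 611 to 5262 in macrophages and 386 to 3213 in epithelial cells. None of the defining collagens Col1a1, Col1a2 and Col3a1 was at 0 on every plate in any class. Their part in the results was not tested. Zeb1 itself stood at 93.2 and 83.4 CPM in FibCtrl fibroblasts and at 43.7, 48 and 27.8 in FibΔZeb1 fibroblasts. The tag may lie outside the deleted stretch, whose position was not given in the sources used here.

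The promoters below show what the group shares in sequence. RefSeq promoter windows (GRCm38.p6, 250 bases before to 50 after a transcription start) were at hand for 30 of the 34 genes, and the HIF core was searched as ACGTG or GCGTG on either strand, which reads CACGT or CACGC on the reverse strand; a CACGTG counts once on each strand. At least 1 core stood in a window of 28 of the 30 genes, against 46.7% of 27025 genes in the table, and at least 2 in 23 genes, against 22.9%. Ldha held 7 cores, a number reached by 0.34% of genes, Bnip3 and Hk1 held 5 (1.91%), and P4ha2, Ankrd37, Pfkp and Pfkfb3 held 4 (4.43%), each in the window of the start site with the most. Ero1l held 3 (10.2%) and Slc2a1 held 2, while none of these letters stood in the windows of Tpi1 or Gpi1. A match describes letters and not a bound site. The 6 windows shown were chosen to span 7 cores to none and to include genes that were high in epithelial cells (Ldha, Bnip3, Tpi1), fibroblasts (P4ha2) and neutrophils (Ero1l, Slc2a1). Each runs 5′ to 3′ on the gene's strand, with the cores in capitals.
Ldha, chr7:46845554-46845853, plus strand: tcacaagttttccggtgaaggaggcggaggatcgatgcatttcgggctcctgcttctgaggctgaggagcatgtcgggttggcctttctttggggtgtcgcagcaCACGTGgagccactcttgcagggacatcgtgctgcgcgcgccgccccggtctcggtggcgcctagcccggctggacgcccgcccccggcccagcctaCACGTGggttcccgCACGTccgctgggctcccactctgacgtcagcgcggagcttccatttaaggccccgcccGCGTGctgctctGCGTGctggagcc
Bnip3, chr7:138909457-138909756, minus strand: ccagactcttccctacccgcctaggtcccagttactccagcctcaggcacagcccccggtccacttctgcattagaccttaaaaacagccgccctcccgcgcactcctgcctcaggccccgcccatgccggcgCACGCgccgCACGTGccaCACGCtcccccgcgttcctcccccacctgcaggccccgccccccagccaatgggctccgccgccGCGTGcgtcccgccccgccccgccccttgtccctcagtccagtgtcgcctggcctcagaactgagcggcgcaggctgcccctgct
P4ha2, chr11:54100674-54100973, plus strand: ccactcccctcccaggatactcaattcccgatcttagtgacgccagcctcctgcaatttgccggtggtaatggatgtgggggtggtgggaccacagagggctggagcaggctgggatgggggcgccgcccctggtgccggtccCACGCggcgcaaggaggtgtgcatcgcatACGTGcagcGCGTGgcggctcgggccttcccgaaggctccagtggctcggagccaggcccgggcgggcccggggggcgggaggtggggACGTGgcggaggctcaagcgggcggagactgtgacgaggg
Ero1l, chr14:45318523-45318822, minus strand: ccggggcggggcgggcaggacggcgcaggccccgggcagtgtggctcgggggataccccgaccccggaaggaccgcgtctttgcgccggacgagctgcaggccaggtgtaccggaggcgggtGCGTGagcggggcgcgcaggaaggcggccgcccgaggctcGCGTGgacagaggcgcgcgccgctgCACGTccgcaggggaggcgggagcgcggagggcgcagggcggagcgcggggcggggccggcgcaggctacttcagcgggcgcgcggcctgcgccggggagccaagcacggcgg
Slc2a1, chr4:119108495-119108794, plus strand: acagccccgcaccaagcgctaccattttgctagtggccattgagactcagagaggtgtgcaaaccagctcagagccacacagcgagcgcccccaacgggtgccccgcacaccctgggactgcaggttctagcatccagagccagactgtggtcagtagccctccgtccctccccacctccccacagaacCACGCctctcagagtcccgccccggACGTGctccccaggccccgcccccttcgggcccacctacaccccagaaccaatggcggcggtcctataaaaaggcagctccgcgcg
Tpi1, chr6:124814109-124814408, minus strand: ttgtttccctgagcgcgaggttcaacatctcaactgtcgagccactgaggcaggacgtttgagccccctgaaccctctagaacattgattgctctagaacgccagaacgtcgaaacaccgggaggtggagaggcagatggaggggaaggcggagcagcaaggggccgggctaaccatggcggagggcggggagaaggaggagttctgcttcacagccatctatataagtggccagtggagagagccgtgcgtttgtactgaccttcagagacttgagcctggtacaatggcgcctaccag

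All 34 genes together made up 13710.0 ± 4899 CPM in neutrophils (mean ± SD, n = 7 plates), 12290.0 ± 2046 in epithelial cells (n = 8), 10070.0 ± 2732 in macrophages (n = 6), 7524 ± 1755 in fibroblasts (n = 5) and 5693 ± 1779 in lymphoid cells (n = 7). By mean level, 14 genes stood highest in epithelial cells, 13 in neutrophils, 4 in fibroblasts, 2 in macrophages and 1, Bhlhe40, in lymphoid cells, while 20 stood lowest in lymphoid cells. All plates of the highest class lay above all plates of the others for Slc2a1, Slc2a3 and Slc16a3 in neutrophils and for P4ha2 and Plod2 in fibroblasts, and for no other member. The counts in this paragraph were not made over all genes, so whether they are unusual cannot be read.

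**Figure D1:**
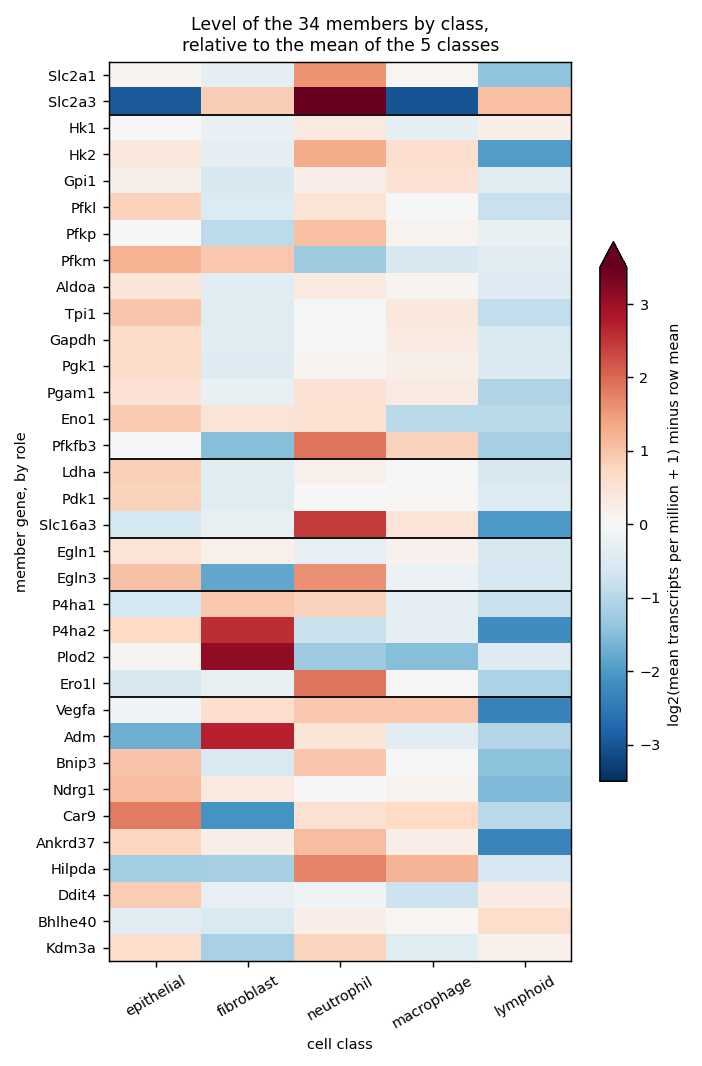
Heat map of the mean level of each of the 34 genes in each class, as log2 difference from the gene's mean over the 5 classes, with genes in rows grouped by role and classes in columns; the colour scale is clipped at 3.5 either way. Slc2a3 in neutrophils lies past the clip, and the lymphoid column is lowest for 20 of the 34 genes.

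Each class was compared with the mean of the other 4 by edgeR's quasi-likelihood test on transcripts summed per plate and class, with the plate as a block; 7608 genes were tested and 31 of the 34 members among them, since Pfkm, Eno1 and Car9 fell below the filter on low counts. Adjusted p-values are over all genes tested, with a threshold of 0.05. In neutrophils 17 members were higher and none lower, where 18.1% of all genes were higher, 20.8% lower and 38.9% either way; the median log2 difference was 0.72 for the members and -0.28 for all genes. Lymphoid cells showed the opposite: 22 members were lower and 1, Slc2a3, higher, where 17.8% of all genes were lower, 23.5% higher and 41.2% either way, with medians of -0.94 and 0.06. In epithelial cells 13 members were higher and 7 lower, against 34.1% higher, 25.4% lower and 59.5% either way over all genes (medians 0.37 and 0.11), so that the share called was near that of all genes. Fibroblasts had 6 members higher and 5 lower, against 24.2%, 22% and 46.2% (medians -0.20 and -0.02). Macrophages had 6 higher and 2 lower, against 20.5%, 12.8% and 33.3% (medians 0.07 and 0.01).

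The split of calls depended on how libraries were scaled. By total transcripts alone, without TMM factors, the median of all genes moved to 0.38 in epithelial cells, -0.27 in fibroblasts, -0.38 in neutrophils, -0.11 in macrophages and 0.25 in lymphoid cells. The members' calls then stood at 17 higher and 5 lower in epithelial cells, 6 and 12 in fibroblasts and 5 and 4 in macrophages. DESeq2 gave 16 and 6, 8 and 5, and 5 and 3 in the same classes. In neutrophils both gave 15 higher and 1 lower, the latter being Plod2, and in lymphoid cells they gave 2 and 19 without TMM factors and 1 and 21 with DESeq2.

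Glucose transporters. Slc2a1 (GLUT1), the widely used basal glucose transporter, was highest in neutrophils, with a lowest plate of 424 CPM, a median of 716 and a highest of 774. No plate of another class reached its lowest neutrophil plate: epithelial cells lay at 132 to 316 (median 240.3), fibroblasts at 58.2 to 296, macrophages at 106 to 408 and lymphoid cells at 21.7 to 158. The log2 difference to the mean of the other classes was 2.01 ± 0.23 (SE; adjusted p = 6.4e-09) in neutrophils and -1.91 ± 0.29 in lymphoid cells (adjusted p = 1.49e-06; lower on 7 of 7 plates). Epithelial cells (231 ± 64.3), macrophages (226 ± 107) and fibroblasts (175 ± 94.9) followed in that order and overlapped.

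Slc2a3 (GLUT3), a transporter with high affinity for glucose whose gene lies at chr6:122727809-122801640 (GRCm38, minus strand), varied widely between classes. In neutrophils it ranged from 174 to 1373 CPM, with a median of 371. Macrophages held 0 on 4 of 6 plates and 9.14 and 7.15 on FibΔZeb1 plates 1 and 3, or 8 transcripts in all. A count of 0 on those 4 plates allows up to 11.4 to 24.4 CPM, so that no order among macrophage plates can be read. Every neutrophil plate thus lay above every macrophage plate, and FibCtrl 2 stood far above the next neutrophil plate (499). Epithelial cells held 0 to 7.6 CPM (median 1.90), fibroblasts 49.6 and 109 in FibCtrl and 37.8, 55.1 and 17.4 in FibΔZeb1, and lymphoid cells 21.7 to 136 (median 39.7). Log2 differences to the other classes were 4.69 ± 0.30 in neutrophils (adjusted p = 2.43e-15), -4.45 ± 0.45 in epithelial cells (adjusted p = 1.32e-10) and -3.09 ± 0.55 in macrophages (adjusted p = 2.4e-05), and the direction held on each plate with both. Slc2a3 was also called higher in fibroblasts (1.59 ± 0.32, adjusted p = 9.85e-05) and in lymphoid cells (1.27 ± 0.35, adjusted p = 0.00418). The fibroblast call was lost without the fibroblast cluster led by Inhba, described further on (0.35, adjusted p = 0.54), and the lymphoid call without FibCtrl plate 4 (0.83, adjusted p = 0.0726).

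Glycolytic enzymes. Summed over the 13 enzymes, epithelial cells held 7074 ± 1259 CPM, neutrophils 6074 ± 2385, macrophages 5819 ± 1485, fibroblasts 3630 ± 766 and lymphoid cells 3160 ± 943, and the first 3 overlapped. By mean level 7 enzymes were highest in epithelial cells, 5 in neutrophils (Hk1, Hk2, Pfkp, Pgam1 and Pfkfb3) and 1, Gpi1, in macrophages. Of the 11 tested, 5 were higher in epithelial cells (Pfkl, Tpi1, Gapdh, Pgk1 and Pgam1), 5 in neutrophils (Hk2, Pfkp, Aldoa, Pgam1 and Pfkfb3) and 4 in macrophages (Hk2, Gpi1, Gapdh and Pfkfb3), with none lower in these classes, while 2 were lower in fibroblasts and 9 in lymphoid cells with none higher. Over all genes 34.1%, 18.1% and 20.5% were higher in the first 3 classes and 22% and 17.8% lower in the last 2, so that the epithelial count is not far from that of all genes.

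Tpi1, the triose phosphate isomerase of the pathway's midpoint, showed the largest epithelial difference among the enzymes. Epithelial plates stood between 750.2 and 1311 CPM, with a median of 902. Macrophages followed at 409.6 to 893 (median 609.9), neutrophils at 82.3 to 1019 (median 462), fibroblasts at 234 to 448 and lymphoid cells at 109 to 456. The epithelial plates lay above all fibroblast and lymphoid plates, and the log2 difference was 1.06 ± 0.19 (adjusted p = 1.46e-05; higher on 8 of 8 plates).

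Hk2, the inducible hexokinase that traps glucose in the cell, stood at 0 to 82.5 CPM on lymphoid plates (median 32.6), against 73 to 157 in fibroblasts, 106 to 269 in epithelial cells, 157 to 279 in macrophages and 199.8 to 573 in neutrophils. Its lymphoid difference was -2.56 ± 0.29 (adjusted p = 3.78e-09; lower on 7 of 7 plates), and only FibCtrl 4 among the lymphoid plates reached into the fibroblast range. Pfkfb3, which makes the allosteric activator of phosphofructokinase, was highest in neutrophils, at 74.9 to 541 (median 261). Fibroblasts held 26.8 and 40.3 in FibCtrl and 13.1, 24.9 and 13.9 in FibΔZeb1, macrophages 81.2 to 181, epithelial cells 22.8 to 93 and lymphoid cells 10.9 to 53.1. All neutrophil plates stood above all fibroblast and lymphoid plates. The lowest of them, at 74.9, equals what 3 counts make on FibΔZeb1 plate 2, so that its order cannot be read. Log2 differences were 2.56 ± 0.27 in neutrophils (adjusted p = 6.09e-10), 0.92 ± 0.25 in macrophages (adjusted p = 0.00423) and -1.82 ± 0.31 in fibroblasts (adjusted p = 6.46e-06). The macrophage call was lost where 20 wells were required on each plate (adjusted p = 0.0698) and where wells were weighted equally (adjusted p = 0.0884).

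Among the others, Gapdh was the most abundant enzyme, at 1480.2 ± 361 CPM in epithelial cells, with Pgk1 at 1279 ± 353, Aldoa at 1113 ± 161 and Pgam1 at 1059 ± 254. Gapdh, Pgk1 and Aldoa have processed copies in the genome and Eno1 a near-identical one, so that their counts are uncertain. Eno1, the enolase of most tissues, gave 46 transcripts over all wells and was at 0 on every macrophage and lymphoid plate, and Pfkm, the muscle phosphofructokinase, stood at 14.4 ± 5.43 in epithelial cells. Hk1, the housekeeping hexokinase, passed in no class and ranged from 75.1 ± 35.2 in macrophages to 119.9 ± 66.5 in neutrophils.

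Pyruvate and lactate. Ldha, the lactate dehydrogenase subunit that makes lactate, was the most abundant of all 34 genes. Epithelial plates held 1657 to 2587 CPM, with a median of 2298, against 874 to 2038 in neutrophils (median 1525), 860.4 to 1677 in macrophages, 583, 862, 885, 1256 and 1015 in fibroblasts (in the order FibCtrl 1 and 4, FibΔZeb1 1, 3 and 4) and 481 to 1053 in lymphoid cells. Epithelial plates did not overlap those of fibroblasts or lymphoid cells. The log2 difference was 0.85 ± 0.14 in epithelial cells (adjusted p = 1.66e-06; higher on 8 of 8 plates).

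Slc16a3 (MCT4), the exporter of lactate in glycolytic cells, was ordered otherwise. Neutrophils held 347 to 1390.3 CPM (median 638), all above the macrophage range of 97.5 to 249. Fibroblasts held 63.5 and 161 in FibCtrl and 61.1, 163 and 73 in FibΔZeb1, epithelial cells 33.9 to 118 (median 83.3) and lymphoid cells 7.95 to 70.2. Log2 differences were 3.07 ± 0.25 in neutrophils (adjusted p = 1.16e-12; higher on 7 of 7 plates), -1.0 ± 0.23 in epithelial cells (adjusted p = 0.000375) and -2.69 ± 0.35 in lymphoid cells (adjusted p = 1.2e-07). On 2 of 8 plates epithelial Slc16a3 stood above the mean of the other classes. Pdk1, the kinase that blocks pyruvate entry into mitochondria, was called in epithelial cells alone among the 5 classes (83.6 ± 27 CPM; 0.80 ± 0.21, adjusted p = 0.00169), and the other classes had means of 34.9 to 49.2.

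Oxygen sensors. Egln3 (PHD3), a prolyl hydroxylase that HIF itself induces, was high in neutrophils and epithelial cells and low in fibroblasts. Neutrophils held 275 to 883 CPM (median 356) and epithelial cells 138 to 509 (median 340.4). Fibroblasts held 72.4 and 24.5 in FibCtrl and 30.6, 64 and 45.2 in FibΔZeb1, and both of the high classes lay above them on every plate. Macrophages ranged from 19 to 300.4 and lymphoid cells from 27.8 to 263. Log2 differences were 2.41 ± 0.27 in neutrophils (adjusted p = 2.11e-09), 1.19 ± 0.23 in epithelial cells (adjusted p = 2.74e-05), -2.20 ± 0.34 in fibroblasts (adjusted p = 1.5e-06) and -0.94 ± 0.31 in lymphoid cells (adjusted p = 0.0137). The lymphoid call was lost without FibCtrl plate 1 (-0.79, adjusted p = 0.0623). Egln1 (PHD2), the main sensor in normal oxygen, varied less, from 66.7 ± 16 in lymphoid cells, where it was lower (-0.77 ± 0.25, adjusted p = 0.0129), to 137 ± 33.1 in epithelial cells.

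**Figure D2:**
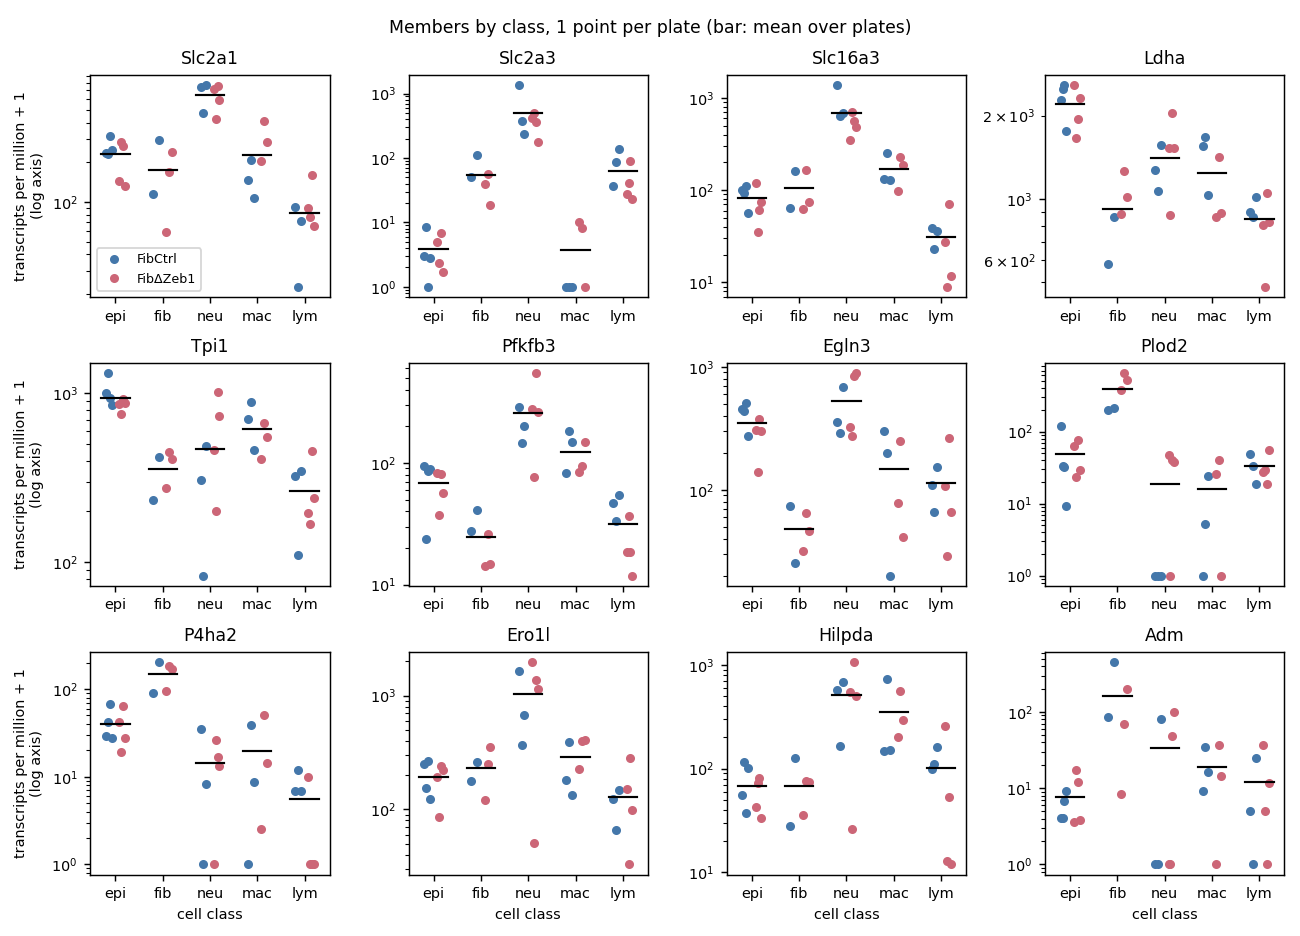
Level of members with values for each plate in the text, in CPM on a log axis, by class; each point is 1 plate, coloured by FibCtrl or FibΔZeb1. Slc2a3, Slc2a1 and Slc16a3 points in neutrophils lie above those of every other class, and Plod2 and P4ha2 points in fibroblasts above those of every other class.

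Matrix hydroxylases and Ero1l. Fibroblasts led in 3 of these 4 genes. Plod2, the lysyl hydroxylase of collagen telopeptides (chr9:92542223-92608428, GRCm38, plus strand), stood at 195 and 211 CPM in FibCtrl and 377, 639.5 and 521 in FibΔZeb1 fibroblasts. Epithelial cells held 8.19 to 118 (median 31.7), lymphoid cells 17.5 to 54.3, macrophages 0 to 39.3 and neutrophils 0 to 46.2. Every fibroblast plate lay above every plate of the other classes, and the log2 difference was 3.91 ± 0.30 (adjusted p = 1.52e-13); macrophages were lower (-1.63 ± 0.48, adjusted p = 0.00728), a call lost with at least 20 wells a plate (adjusted p = 0.0886).

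P4ha1 and P4ha2, catalytic subunits of collagen prolyl 4-hydroxylase, differed in which classes held them. P4ha2 stood at 90.3 and 201 in FibCtrl and 93.1, 181 and 167 in FibΔZeb1 fibroblasts, against 18.3 to 66.4 in epithelial cells and at most 50.1, 33.9 and 10.9 in macrophages, neutrophils and lymphoid cells. The fibroblast plates lay above all others (3.71 ± 0.30, adjusted p = 5.92e-13), and lymphoid cells were lower (-2.62 ± 0.60, adjusted p = 0.000545). The epithelial call for P4ha2 (0.69 ± 0.30, adjusted p = 0.0478) was lost in 10 alternatives, among them those without FibCtrl plate 1 (adjusted p = 0.0822), FibCtrl 3 (adjusted p = 0.0673), FibCtrl 4 (adjusted p = 0.0612) and FibΔZeb1 plate 1 (0.44, adjusted p = 0.204). P4ha1 stood at 208 and 279 in FibCtrl and 265, 357 and 229 in FibΔZeb1 fibroblasts, at 20.6 to 508 (median 224) in neutrophils, and at 39.8 to 129.8 (median 92.3) in epithelial cells. Fibroblasts and neutrophils overlapped and both were called higher (1.27 ± 0.23, adjusted p = 1.52e-05, and 1.22 ± 0.25, adjusted p = 0.000201). Epithelial cells were lower (-0.85 ± 0.22, adjusted p = 0.000943), a call that limma lost with wells weighted equally (-0.32, adjusted p = 0.383). On 2 of 8 plates epithelial P4ha1 stood above the mean of the other classes.

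Ero1l, the oxidase that forms disulfide bonds in the endoplasmic reticulum, had its highest level in neutrophils, with a wide spread from 49.9 to 1964 CPM and a median of 1144. FibΔZeb1 plate 2 gave the lowest value, below the macrophage plates (133 to 410.0) and the fibroblast plates (119 to 355). That value is under the 74.9 CPM that 3 counts make on this plate, so that its order against them cannot be read. The other 6 neutrophil plates reached 371 or more. The log2 difference was 2.35 ± 0.25 (adjusted p = 1.29e-09; higher on 6 of 7 plates). Epithelial cells held 84.2 to 266 and were lower (-0.75 ± 0.24, adjusted p = 0.00843), as were lymphoid cells at 31.8 to 281 (-1.49 ± 0.30, adjusted p = 0.000121).

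Other HIF targets. Vegfa, the vascular growth factor, was low in lymphoid cells alone, at 17.7 to 52.6 CPM on 6 plates and 207 on FibCtrl 3. Means in the other classes were 584 ± 184 in macrophages, 583 ± 384 in neutrophils, 459 ± 204 in fibroblasts and 282 ± 86 in epithelial cells, with overlapping ranges. The lymphoid difference was -3.31 ± 0.36 (adjusted p = 1.91e-09), and neutrophils, macrophages and fibroblasts were called higher (1.36 ± 0.27, 1.18 ± 0.26 and 0.94 ± 0.28).

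Adm, which encodes the vasodilator peptide adrenomedullin, stood at 84.3 and 447 in FibCtrl and 7.28, 67.5 and 198 in FibΔZeb1 fibroblasts and at 2.62 to 16.3 in epithelial cells (median 4.46). FibΔZeb1 plate 1 fell within the epithelial range and the other 4 fibroblast plates above it. Adm was higher in fibroblasts (3.46 ± 0.40, adjusted p = 4.41e-09; 5 of 5 plates) and lower in epithelial cells (-2.33 ± 0.47, adjusted p = 7.55e-05), where the call was lost with wells weighted equally (-0.96, adjusted p = 0.308). On 3 of 8 plates epithelial Adm stood above the mean of the other classes. Hilpda, a lipid droplet protein that restrains lipolysis, was high in neutrophils, at 25 to 1067 (median 555), and in macrophages, at 146 to 737 (median 248). It was called higher in both (2.14 ± 0.35, adjusted p = 5.67e-06, and 1.57 ± 0.36, adjusted p = 0.000658), and the means of the other 3 classes were 66.3 to 99.9. Fibroblasts held 26.8 and 127 in FibCtrl and 34.9, 74.6 and 73 in FibΔZeb1, which overlapped the neutrophil plates and lay below every macrophage plate. Its lower call in fibroblasts (-1.30 ± 0.43, adjusted p = 0.012) was lost without FibCtrl 1 (adjusted p = 0.0581), without FibΔZeb1 1 (adjusted p = 0.0582) and without the mitochondrial filter (adjusted p = 0.0555).

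Ndrg1, a stress-induced gene of differentiating epithelium, was highest in epithelial cells, at 162 to 474 (median 284). It stood at 77.1 to 226 in fibroblasts, 41.8 to 268 in macrophages, 25 to 263 in neutrophils and 0 to 158 in lymphoid cells, so that only the lymphoid plates lay wholly below. The epithelial difference was 1.27 ± 0.23 (adjusted p = 1.18e-05; higher on 8 of 8 plates). Bnip3, a mitophagy receptor, had near-equal means in epithelial cells (505 ± 247) and neutrophils (497 ± 276) and was called higher in both (1.08 ± 0.24 and 1.45 ± 0.28). Kdm3a, a histone demethylase that needs oxygen, was called higher in epithelial cells (0.62 ± 0.18) and neutrophils (1.17 ± 0.27) and lower in fibroblasts (-1.16 ± 0.26, adjusted p = 0.000425). Car9, the carbonic anhydrase often used to mark hypoxic tumour cells, stood at 36.5 ± 13.7 CPM in epithelial cells and at 1.47 ± 1.27 in fibroblasts and was not tested.

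Fibroblasts and epithelial cells were compared directly. The epithelial class is not carcinoma alone: 37 of its wells formed a cluster led by Lypd8, Dmbt1 and Clca6, genes of mature colon epithelium, with 32 of them among the 66 epithelial wells of FibΔZeb1 2. Without that cluster, an alternative chosen after seeing the data, 7 members were higher and 11 lower, as many as with it. Of 31 members, 7 were higher in fibroblasts and 11 lower, against 21.5% and 21.8% of all genes and 43.4% either way (medians -0.44 and -0.11); without TMM factors 5 were higher and 17 lower and the median of all genes was -0.52. Higher in fibroblasts were Slc2a3 (4.83 ± 0.40, adjusted p = 1.21e-12), Adm (4.63 ± 0.52, adjusted p = 2.25e-09), Plod2 (3.27 ± 0.37, adjusted p = 2.15e-09), P4ha2, P4ha1, Vegfa and Slc16a3. The Plod2 call was lost with wells weighted equally (2.37, adjusted p = 0.0831). The Slc16a3 call (0.80 ± 0.31, adjusted p = 0.0318) was higher on 2 of 5 plates and lost in 8 alternatives, without FibCtrl 4 (0.53), without FibΔZeb1 3 (0.57) and without the Inhba cluster (0.23) among them. Lower were 6 of the 11 tested enzymes, led by Pfkfb3 (-1.25 ± 0.32, adjusted p = 0.00179), together with Ldha (-0.95 ± 0.20, adjusted p = 0.000232), Pdk1, Egln3 (-2.71 ± 0.37, adjusted p = 1.49e-07), Bnip3 and Kdm3a (-1.42 ± 0.28, adjusted p = 7.06e-05), and each was lower on 5 of 5 plates. All 3 matrix hydroxylases were thus higher in fibroblasts and the enzymes called were lower.

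Neutrophils and macrophages, the myeloid classes, were compared in the same way. Of 31 members 11 were higher in neutrophils and none lower, against 11.4% and 17.6% of all genes and 29% either way (medians 0.56 and -0.17). The 11 were both glucose transporters, Hk2, Pfkp, Pfkfb3, Slc16a3, Egln3, P4ha1, Ero1l, Bnip3 and Kdm3a. Slc2a3 differed most (6.22 ± 0.53, adjusted p = 6.27e-11), followed by Egln3 (2.29 ± 0.37, adjusted p = 9.49e-06), Slc16a3 (1.96 ± 0.33, adjusted p = 2e-05), Ero1l (1.84 ± 0.35, adjusted p = 9.85e-05), Kdm3a (1.47 ± 0.34, adjusted p = 0.00122) and Pfkfb3 (1.31 ± 0.32, adjusted p = 0.00214). The Pfkfb3 call was lost without FibΔZeb1 plate 3 (0.93, adjusted p = 0.0541). From aldolase to Pgam1 no enzyme passed: estimates for Aldoa, Tpi1, Gapdh, Pgk1 and Pgam1 lay between -0.41 and 0.30. Neutrophil wells held fewer transcripts than macrophage wells, as given above.

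**Figure D3:**
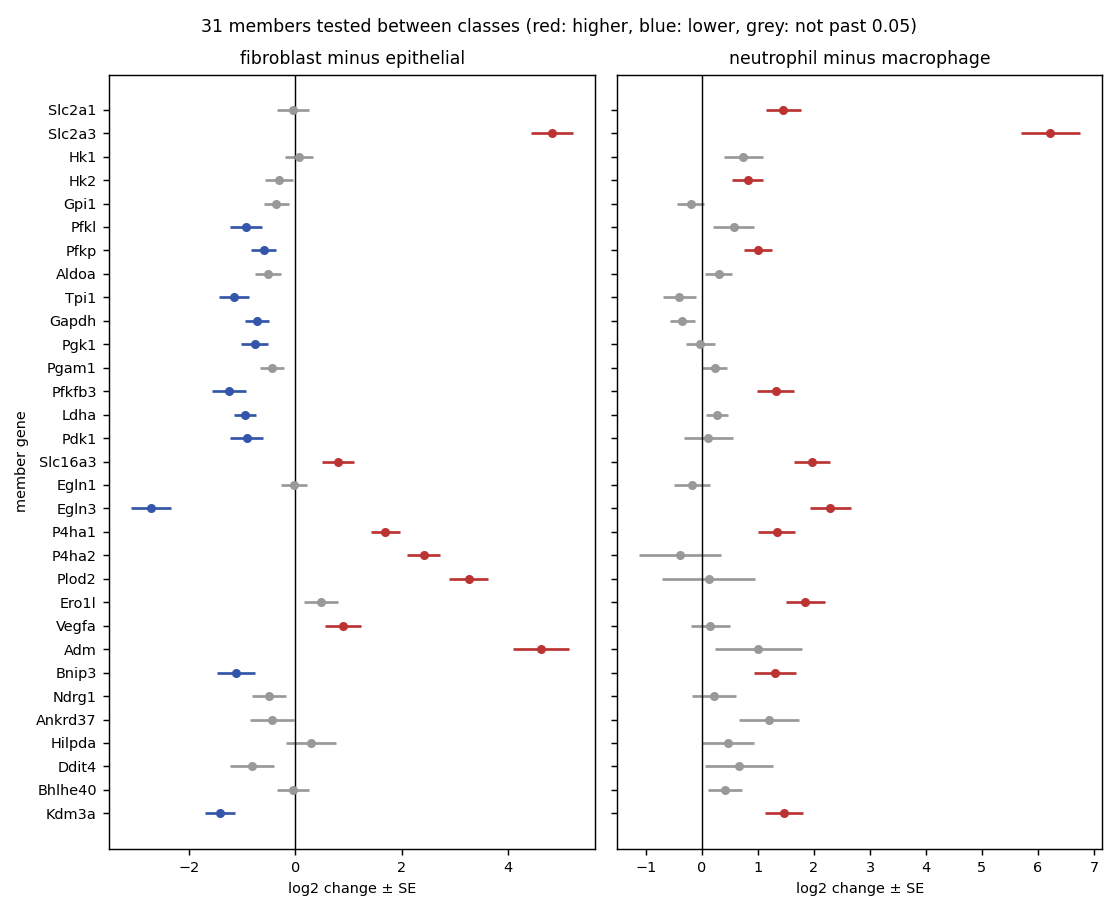
Log2 difference of each tested member, fibroblasts minus epithelial cells and neutrophils minus macrophages, with bars of 1 standard error. Red points were higher and blue points lower at an adjusted p under 0.05, grey points did not pass, and genes are grouped by role. Matrix hydroxylases lie to the right and most glycolytic enzymes to the left in the first contrast, and all 11 points that passed lie to the right in the second.

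Genes that act next to the members were counted from pathway lists. Oxidative phosphorylation, which takes over where pyruvate enters mitochondria, had 21 of 22 tested subunits higher in epithelial cells, where 34.1% of all genes were, and 15 of 22 lower in neutrophils, where 20.8% were, with none the other way. Between neutrophils and macrophages 15 of 22 were lower and none higher, with Cox5a, a subunit of complex IV, at 80.7 ± 60 and 354 ± 95.8 CPM (-1.92 ± 0.28, adjusted p = 2.71e-06) and Ndufa9, of complex I, at 8.90 ± 11.4 and 57.3 ± 21.2 (-2.17 ± 0.49, adjusted p = 0.000915). Between fibroblasts and epithelial cells 13 of 22 were lower and none higher, with Cox5a (-0.99 ± 0.24) and Uqcrfs1 of complex III (-0.82 ± 0.21) leading. Over all genes 17.6% were lower in neutrophils than macrophages and 21.8% in fibroblasts than epithelial cells. The tricarboxylic acid cycle followed: 9 of 10 genes were higher in epithelial cells, 6 lower in neutrophils, 6 lower in neutrophils than macrophages, led by Suclg1 (-2.04 ± 0.59) and Fh1 (-1.48 ± 0.50), and 5 lower in fibroblasts than epithelial cells, led by Idh3a (-0.96 ± 0.27) and Idh3g (-0.77 ± 0.27). The Fh1 call was lost without FibCtrl 3 (adjusted p = 0.0534) or FibΔZeb1 1 (adjusted p = 0.0549), and the Idh3g call without FibCtrl 4 (adjusted p = 0.128) or FibΔZeb1 1 (adjusted p = 0.0581). With at least 20 wells a plate Fh1 and Suclg1 were lost, and with wells weighted equally Idh3a, Idh3g and Uqcrfs1. On neutrophil plates 3 counts make 21.5 to 74.9 CPM. Mean neutrophil levels of Ndufa9, Suclg1 (11.6) and Fh1 (13.8) lie under that range and rest on few transcripts. Within neutrophils only 5 of the 22 oxidative phosphorylation genes and 1 of the 10 cycle genes passed the filter for the genotype test.

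Further HIF targets outside the 34 genes had 10 of 23 tested higher and 1 lower in neutrophils, against 18.1% and 20.8% of all genes. In lymphoid cells 2 of these targets were higher and 13 lower, against 23.5% and 17.8%. Between fibroblasts and epithelial cells 8 were higher and 6 lower, led by Lox, a collagen crosslinking enzyme (268 ± 96 and 1.31 ± 1.45 CPM; 7.42 ± 0.43, adjusted p = 1.98e-16), and Angptl4, an inhibitor of lipoprotein lipase (193 ± 92.3 and 1.41 ± 1.32; 7.09 ± 0.45, adjusted p = 1.88e-15). Between neutrophils and macrophages 4 were higher and 1, Arg1, lower (49.1 ± 56.9 and 2531 ± 2753; -5.11 ± 0.63). Over all genes 21.5% were higher and 21.8% lower in fibroblasts than epithelial cells, and 11.4% and 17.6% in neutrophils than macrophages. Other glycolysis genes, 6 of 15 tested, had 1 higher and 4 lower in fibroblasts than epithelial cells, with Aldoc lower (-3.49 ± 0.42) and Pfkfb4 higher (3.16 ± 0.52), and 3 higher in neutrophils than macrophages, Pfkfb4 (1.75 ± 0.52) and Hk3 (1.51 ± 0.45) among them. Of these, Pfkfb4 was lost in both comparisons with wells weighted equally and in neutrophils without FibCtrl 3 or FibCtrl 4, and Hk3 without FibCtrl 4 or FibΔZeb1 1. Hk3 was also lost with DESeq2 (adjusted p = 0.063), with at least 20 wells a plate (0.179) and with wells weighted equally (0.116).

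Pyruvate handling had 2 of 10 tested genes lower in fibroblasts than epithelial cells, Ldhb, the lactate dehydrogenase subunit of oxidative tissues (19 ± 11.2 and 76.3 ± 49.6 CPM; -1.78 ± 0.29, but -0.66 and adjusted p = 0.12 with classes from marker sums), and Pdhb (-1.08 ± 0.21), and 2 lower in neutrophils than macrophages, Slc16a1 (-2.44 ± 0.72) and Mpc1 (-1.36 ± 0.39), the former lost with at least 20 wells a plate and the latter without FibΔZeb1 3. Over all genes 21.8% and 17.6% were lower in these 2 comparisons, so that both counts were near those of all genes. Mean neutrophil levels were 4.58 CPM for Slc16a1 and 21.4 for Mpc1, on plates where 3 counts make 21.5 to 74.9. Of the HIF machinery 12 of 15 genes were tested. Between fibroblasts and epithelial cells 2 were higher and 1 lower, against 21.5% and 21.8% of all genes. The 2 higher were Arnt (0.99 ± 0.31, adjusted p = 0.00845) and Hif1a (0.74 ± 0.28, adjusted p = 0.0331). Both calls were lost without FibCtrl 4 (0.78 and 0.56), without TMM factors (0.57 and 0.32) and with wells weighted equally (0.26 and 0.08). Hif1a was lost in 10 of 22 alternatives, among them those without FibΔZeb1 3 or 4. None of the 12 passed between neutrophils and macrophages, where 29% of all genes did.

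Within a class, levels also differed between clusters, which are given as a description since clusters were cut from the same cells. How many of all genes were highest in each cluster was not counted. The counts of members below thus cannot be read as particular to them. In fibroblasts, 49 wells on 8 plates formed a cluster led by Inhba, Il33 and Ankrd1 in which 32 of 34 members were highest of the 3 fibroblast clusters. Slc2a1 stood there at 1122 CPM, against 38.5 in the cluster led by Dpt and 93.1 in the cluster led by Tnc, Ero1l at 1470.1 against 84.8 and 100.5, and Vegfa at 1775 against 181 and 324. Slc2a3 followed at 351.5 against 6.6 and 43.6 and Pgk1 at 1853 against 275 and 583. The exceptions were Plod2, highest in the Tnc cluster (388 against 239 in the Inhba cluster), and Pfkm, highest in the Dpt cluster. Wells of the Inhba cluster were shallower, with a median of 5324 transcripts against 23175 and 28295, and held less of the fibroblast markers, 28654 CPM against 91651 and 73117, while the epithelial marker sum was 329 against 185 and 218. Whether depth or the marker level bears on the members was not tested. The cluster made up 22.2%, 50%, 88.9% and 11.5% of the fibroblast wells in FibCtrl (replicates 1 to 4) and 41.7%, 33.3%, 47.1% and 37.5% in FibΔZeb1. FibCtrl 2 and 3 and FibΔZeb1 2 held only 4, 9 and 6 fibroblast wells and were not among the plates compared. The groups overlapped only through FibCtrl 2 and 3. On the 5 plates compared, the share was 22.2% and 11.5% in FibCtrl and 41.7%, 47.1% and 37.5% in FibΔZeb1, without overlap. With so few plates 20.4% of all genes tested in fibroblasts did not overlap either, and the difference in share was not tested. By transcripts it was 3.8% and 7.83% against 12.6%, 17.6% and 24.6%.

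The other classes held clusters of the same kind, again without a count over all genes. In macrophages, 40 wells led by Mmp12, Arg1 and Cxcl3 were highest for 28 of 34 members, with Hilpda at 1188 CPM against 114 in the cluster led by Lyz1, Ero1l at 908 against 171 and Slc2a1 at 806.5 against 162. These wells again were shallow, with a median of 3058 transcripts against 10525, and held 8420.0 CPM of macrophage markers against 19788. In neutrophils, 71 wells led by Ccl3, Cxcl3 and Irg1 were highest for 23 members, with Ero1l at 2562 and Hilpda at 1644, but Slc2a3 (789) and Slc16a3 (1092) were highest in the cluster led by S100a8, S100a9 and Retnlg. The Ccl3 wells too were the shallowest of their class, with a median of 1478.5 transcripts against 1859 and 2198. They held 15750 CPM of neutrophil markers against 21502 and 89632. Among lymphoid cells, 90 wells led by Ctla4 and Icos were highest for 19 members, with Ldha at 1143 against 535 in the cluster of B cell markers led by Igj. In epithelial cells, 113 wells led by Rspo3, Rnase1 and Twist1 were highest for 17 members, and 43 of these wells came from FibCtrl 1 and 37 from FibΔZeb1 1. They held 2435 CPM of fibroblast markers, against 625 to 937 in the other epithelial clusters. Whether depth or marker levels bear on the members was not tested.

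**Figure D4:**
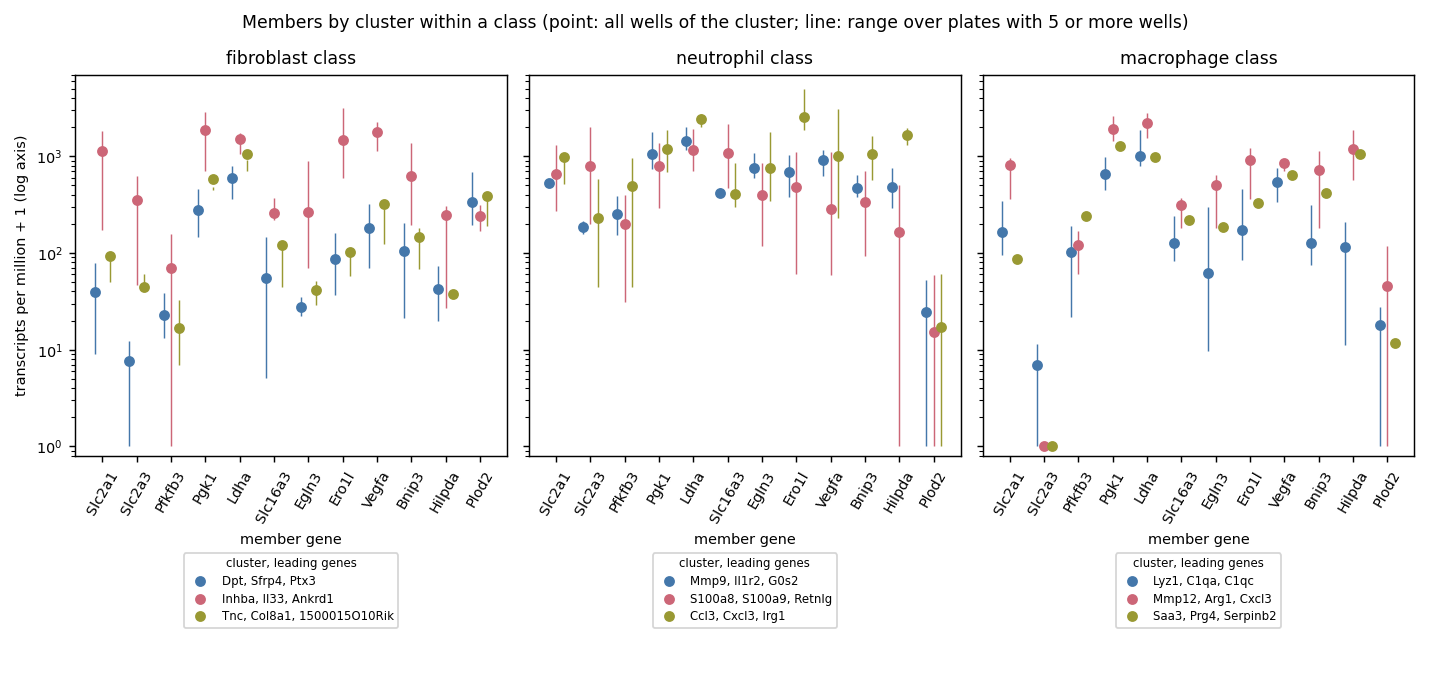
Level of 12 members in each cluster of the fibroblast, neutrophil and macrophage classes, in CPM on a log axis, each with 1 added; points pool all wells of a cluster and lines span the plates with 5 or more wells. The Inhba cluster stands above the other fibroblast clusters for all shown genes except Plod2, and the Mmp12 cluster above the Lyz1 cluster for all but Slc2a3.

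Levels of the members were also correlated from well to well within a class and plate. In epithelial cells (367 wells, 8 plates) the 20 members at 100 CPM or more had a median Spearman correlation of 0.341 over 190 pairs, against 0.0368 over all pairs of genes at that level, and 82.6% of member pairs lay above the 95th percentile of all pairs (0.211). Medians were 0.349 against 0.0315 in fibroblasts (95 wells, 4 plates), 0.252 against 0.0203 in macrophages (120 wells, 4 plates) and 0.127 against 0.0152 in neutrophils (229 wells, 7 plates). In that order 61.6%, 60% and 36.3% of member pairs lay above the 95th percentile of all pairs. The pair with the highest correlation was Ldha with Pgk1 both in epithelial cells (0.743, from 0.632 to 0.860 by plate) and in fibroblasts (0.703), and Aldoa with Pgk1 in macrophages (0.651). Wells of a plate share a library. Ldha and Pgk1 had mean correlations of 0.0611 and 0.0210 with a well's depth in epithelial cells. Other members had larger ones: Vegfa -0.19 in epithelial cells, Aldoa -0.25 and Bnip3 -0.24 in fibroblasts, and Gapdh 0.21 in neutrophils.

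The second question was whether deletion of Zeb1 in fibroblasts went with other member levels, in fibroblasts or in other cells. No member passed the threshold in any class by edgeR's quasi-likelihood test (31 members tested in epithelial cells, 31 in fibroblasts, 21 in neutrophils, 26 in macrophages and 18 in lymphoid cells), where 0%, 0.0122%, 0.0942%, 0% and 0% of all genes tested did. At an unadjusted p under 0.05 there were 0, 1, 0, 1 and 1 members, against 1.83%, 6.03%, 3.86%, 3.63% and 3.19% of all genes. Estimates were lower in FibΔZeb1 for 29 of 31 members in epithelial cells, 22 of 26 in macrophages, 13 of 18 in lymphoid cells and 18 of 31 in fibroblasts, and higher for 18 of 21 in neutrophils, with no test of these shares; over all genes 49.1%, 52.4%, 47.2% and 50.2% were lower in the first 4 and 51.9% higher in neutrophils. Median log2 estimates were -0.21, -0.26, -0.17, -0.03 and 0.27 in that order, against 0.0061, -0.018, 0.021, -0.0025 and 0.025 over all genes, and the median standard errors of 0.28 to 0.48 limit what these plates could show.

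In fibroblasts (2 FibCtrl and 3 FibΔZeb1 plates) Plod2 had the smallest p. Its plates, given above, did not overlap, with means of 203 ± 11.3 and 513 ± 132 CPM, a log2 change of 1.29 ± 0.32 and an adjusted p of 0.423. Within the first flow cell the values were 195 and 377, and within the second 211 and a mean of 580.5. The call changed with the method: DESeq2 gave an adjusted p of 0.0495 and edgeR without a gene filter 0.0212, while edgeR with flow cell as a covariate gave 0.194 and edgeR without the Inhba cluster 0.978 (log2 change 1.35). Slc2a3 (-1.07 ± 0.46, adjusted p = 0.82) and Pfkfb3 (-0.96 ± 0.45, adjusted p = 0.822) had lower estimates. Slc2a3 stood at 49.6 and 37.8 within the first flow cell and at 109 and a mean of 36.2 within the second, and turned to 0.21 without the Inhba cluster. Groups did not overlap for 5 members (Hk2, Pfkp, Pfkfb3, Ldha and Plod2), where 20.4% of all genes tested did not; in epithelial cells, neutrophils, macrophages and lymphoid cells no member was without overlap, where 1.4%, 4.71%, 8.84% and 5.13% of genes were. Macrophage markers, all 12 detected, summed to 249 to 280 CPM in FibCtrl and 117 to 645 in FibΔZeb1 fibroblasts, and epithelial markers, all 14 detected, to 148 to 311 and 119 to 181; their part was not tested.

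In epithelial cells (4 and 4 plates) Egln3 had the smallest p, at 456, 433, 509 and 270.4 CPM in FibCtrl and 304, 138, 377 and 302 in FibΔZeb1, and the groups overlapped (-0.60 ± 0.31, adjusted p = 0.9999). The lowest value is that of FibΔZeb1 2, where 32 of 66 wells were of the mature colon cluster, against at most 2 wells on any other plate; the estimate was -0.68 without that cluster and -0.38 without that plate. Ndrg1 (321 ± 123 and 237.5 ± 58.7; -0.46 ± 0.31, and -0.19 without FibCtrl 1) and Ddit4, an inhibitor of mTORC1 (185 ± 41.2 and 141 ± 50.3; -0.42 ± 0.28), overlapped too. In macrophages (3 and 3) Slc2a1 stood at 146, 206 and 106 in FibCtrl and 204, 408 and 282 in FibΔZeb1 (0.91 ± 0.36, unadjusted p = 0.0292, adjusted p = 0.9998). FibCtrl 3 and FibΔZeb1 1 overlapped, and within flow cells the means were 146 and 204 in the first and 156 and 345 in the second. The estimate was 0.67 without FibCtrl 4 and 0.64 without FibΔZeb1 3, and the Mmp12 cluster, where Slc2a1 was high, held 1 of 11, 8 of 34 and 6 of 18 wells in FibCtrl and 11 of 56, 11 of 29 and 1 of 19 in FibΔZeb1. The Saa3 cluster held 17 of the 34 wells on FibCtrl 3 and at most 3 wells on any other plate, and its part was not tested. Kdm3a (-0.81 ± 0.52) and Ldha (-0.46 ± 0.30) had lower estimates. In neutrophils (3 and 4) Slc16a3 (905 ± 421 and 522 ± 147; -0.81 ± 0.43) moved to -0.34 without FibCtrl 2, and Tpi1 (1.01 ± 0.56) and P4ha1 (1.01 ± 0.66) had higher estimates, Tpi1 0.60 without FibCtrl 3. Neutrophil markers, all 12 detected, summed to 43639 to 106810 CPM in FibCtrl and 20012 to 59825 in FibΔZeb1 neutrophils; their part was not tested. In lymphoid cells (3 and 4) Hk1 stood at 157 ± 64.6 and 76.4 ± 21.6 (-1.03 ± 0.40, unadjusted p = 0.0262, adjusted p = 0.999), Gapdh at 763 ± 199 and 541 ± 182 and P4ha1 at 52.4 ± 27.1 and 102 ± 50.3. The make-up of the class differed between plates: the B cell cluster led by Igj, in which Hk1 stood at 43.2 CPM against 155 in the Ctla4 cluster, held 50 of 100, 8 of 30 and 1 of 25 wells in FibCtrl and 5 of 26, 56 of 78, 0 of 15 and 21 of 39 in FibΔZeb1. B cell markers, all 9 detected, summed to 289 to 4382 CPM in FibCtrl and 0 to 13598 in FibΔZeb1; their part was not tested. The Hk1 estimate was -0.68 without FibCtrl 4.

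**Figure D5:**
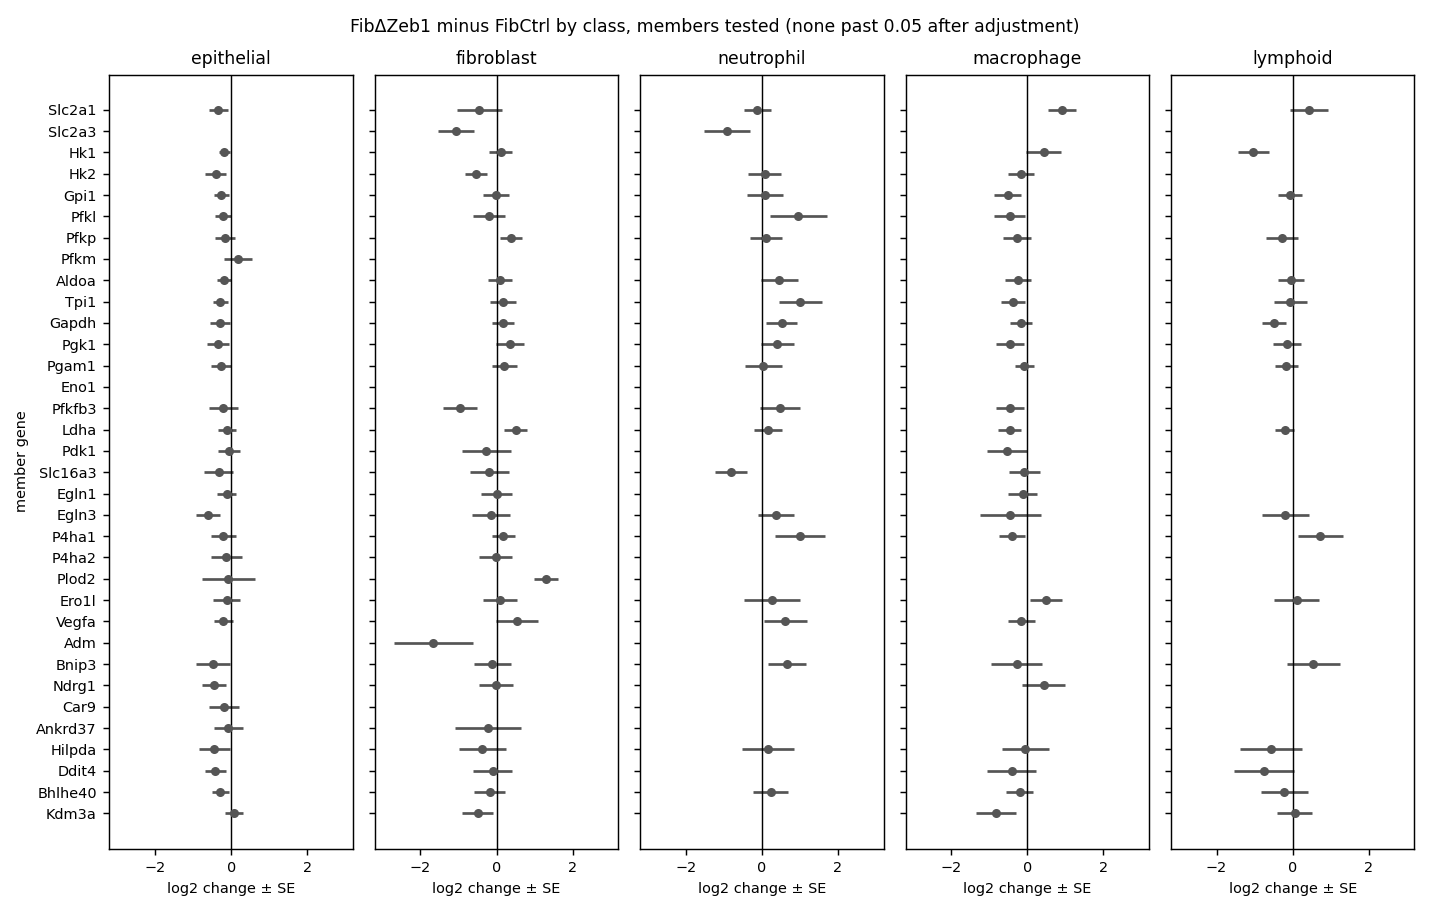
Log2 change of each tested member, FibΔZeb1 minus FibCtrl, in each of the 5 classes, with bars of 1 standard error. No member passed an adjusted p of 0.05; Plod2 in fibroblasts, at 1.29, has the smallest p.

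Whether the genotype change differed between classes was tested with an interaction term. None of 31 members and none of 7608 genes (0%) passed, between fibroblasts and epithelial cells or between neutrophils and macrophages, by edgeR; at an unadjusted p under 0.05 there were 226 genes with 2 members, and 409 genes with 5 members. Slc2a3 had the smallest p in the first (-2.15 ± 0.74, unadjusted p = 0.00686, adjusted p = 1), followed by Adm (-2.12 ± 1.004) and Kdm3a (-0.81 ± 0.54), and the Slc2a3 estimate was -0.81 without the Inhba cluster. In the second, Tpi1 (1.54 ± 0.58, unadjusted p = 0.0126, adjusted p = 0.84), Kdm3a (1.484 ± 0.66) and Pfkl (1.60 ± 0.72) led, and the Tpi1 estimate was 0.74 without FibCtrl 3.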

How the data were processed

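Tumour cells of 8 plates (4 FibCtrl, 4 FibΔZeb1), each treated as 1 mouse, were read by SORT-seq. The authors mapped reads to GRCm38 transcripts with BWA (the submitters' processing notes also name Cell Ranger 2.1.1) and deposited estimated counts of transcripts per gene and well, corrected for identifier collisions, so that 87.1% of non-zero values were whole; sums per plate and class were rounded here. p-values of the genotype tests measure the spread between plates. Those of the class and interaction tests measure the spread of plate-by-class sums left after plate and class are fitted. Wells are numbered alike on all plates, and the sort gate behind a well did not enter.

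Wells with at least 500 transcripts and within 3 median absolute deviations of mitochondrial share were kept (1831 of 3072); mitochondrial (13.4%) and spike-in (9.15%) transcripts stayed out. Wells were clustered (Leiden, leidenalg 0.10.2; 2000 variable genes, 20 components, 15 neighbours, resolution 1) without the listed genes, and a cluster was named with a marker score of at least 0.5 and 3 markers detected; 399 wells in unnamed clusters entered no comparison. Fibroblast wells with 2 or more transcripts of Ptprc, or 2 or more of Epcam, were left out (36 of 183), and no doublet caller was run on the index-sorted wells. Classes with at least 10 wells on a plate were summed and tested with edgeR 4.0.16 (quasi-likelihood, TMM, R 4.3.3; plate as a block between classes) with Benjamini-Hochberg adjustment; DESeq2 1.42.0 and limma 3.58.1 (pseudocount 1, wells weighted equally) were alternatives, as were other filters, leaving out each plate, flow cell and replicate block. Plates 1 and 2 of both groups shared a flow cell, as did plates 3 and 4. The code was tested on simulated counts. Levels at 0 allow up to 3 counts, which covers counting error only.

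The 34 genes and the other lists were chosen with earlier results of these data known. Named were, per role and class comparison, the gene past the threshold with the largest difference each way; per genotype comparison the 3 genes with the smallest p; and per other list the 2 with the largest difference. Other members named were added for their role or pattern after their values were seen.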

Additional observations from a re-analysis of the deposited data

Results flagged for a closer look

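Single plates stood far from the rest of their class by Dixon's criterion in 4 of 55 groups of plates examined; chance alone flags about 1 in 20. In epithelial cells, Tpi1 stood at 1310.6 CPM on FibCtrl plate 2, with the other plates between 750 and 997, and the epithelial difference was 0.97 without that plate. In neutrophils, FibCtrl plate 2 stood apart for both Slc2a3 (1373.4, others 174 to 499) and Slc16a3 (1390.3, others 347 to 699), where differences to the other classes were 4.64 and 2.93 without it. In lymphoid cells, Vegfa stood at 206.62 on FibCtrl plate 3, with the other plates between 17.7 and 52.6, and the difference was -3.83 without it. None of these 4 results lost its call without the plate.

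The 399 wells of unnamed clusters, which entered no comparison, held the 34 genes at a summed 7218.1 CPM, above the 3.68 that a count of 0 allows.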

How the results depend on the processing

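Of the counts of members past the threshold, 306 stayed within 1.5 times the main count under an alternative and 7 did not. For fibroblasts against the other classes the count was 18 without TMM factors (6 higher, 12 lower) and 17 without the Inhba cluster (4 higher, 13 lower; chosen after seeing the data), against 11; with at least 20 wells a plate it was 5 for macrophages against 8, and 7 for neutrophils minus macrophages against 11, where fewer plates enter by construction. Between fibroblasts and epithelial cells it was 11 without FibΔZeb1 plate 1, against 18. For genotype in fibroblasts it was 1 with DESeq2 (Plod2) and 2 with no gene filter (Plod2 higher and Adm lower), against 0. Leaving out each plate in turn gave 17 to 21 members in epithelial cells, 11 to 12 in fibroblasts, 15 to 19 in neutrophils, 7 to 11 in macrophages, 21 to 24 in lymphoid cells, 11 to 17 for fibroblasts minus epithelial cells and 9 to 11 for neutrophils minus macrophages, and 0 for each genotype and interaction comparison. Of the single-gene values, 1874 kept direction and side of the threshold, 69 lost the call, 2 gained it, and 1 reversed: the genotype change of Slc2a3 in fibroblasts was 0.21 without the Inhba cluster. Apart from fewer plates, the causes were not tested.

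Replicate numbers were checked as a pairing: deviations of plates with the same number from their group means correlated at 0.536, 0.26, 0.139 and 0.0986, and 3 of 4 FibCtrl plates correlated best with their own number. With the replicate block the genotype change of Plod2 in fibroblasts was 1.09 (edgeR, adjusted p = 0.296) and no member passed in any class. Without the plate block 19 members passed in epithelial cells, 16 between fibroblasts and epithelial cells and 9 between neutrophils and macrophages.

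Depth limits neutrophils and lymphoid cells most: 21 and 18 of the 34 genes could be tested there for genotype, and fibroblasts rested on 5 plates. On neutrophil plates 3 counts make 21.5 to 74.9 CPM, so that the lowest neutrophil values of Ero1l, Hilpda, P4ha1 and Pfkfb3 rest on few transcripts.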

Other observations

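Pericyte-like (27 wells, 5 plates), mesothelial-like (35 wells, 7 plates) and mast-like cells (43 wells, 7 plates) were too few for the comparisons, and their pooled levels carry no test. Ldha stood at 1273, 1431 and 1105 CPM in that order and Gapdh at 917, 1015 and 934. Plod2, the lysyl hydroxylase that was highest in fibroblasts, stood at 116, 252 and 29.5, and P4ha1 at 286, 253 and 105. Egln3 stood at 278 in pericyte-like and 226 in mesothelial-like wells against 33.7 in mast-like wells, and Ndrg1 at 34, 299 and 143. Bhlhe40, the transcriptional repressor highest in lymphoid cells among the 5 classes, stood at 985 in mast-like wells against 298 and 195, and Pfkp, the platelet-type phosphofructokinase, at 367 against 188 and 53.7. Slc2a3 was seen in all 3, at 80, 31.8 and 46.4, and Adm was at 0 in pericyte-like wells.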
